A study of Mus musculus with 18 samples.

Results

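The mouse genes Cux1, Cux2, Rorb, Pou3f1, Pou3f2, Pou3f3 and Mef2c are transcription factor genes used to mark the upper layers of the cerebral cortex. Their RNA was followed through brain development and 3 perturbations of peroxisomes and ether lipids. The 7 genes were chosen by symbol, out of 32941 genes in each of 4 tables, and all 7 had a value in every library. RNA sequencing covered 18 libraries. Wild-type brain at embryonic days 11, 12, 13, 14, 16 and 18 (E11 to E18) had 1 library per stage (the series describes its stage samples as cortex, sequenced in triplicate). Primary neural stem cells were a wild-type control (NSC-Scramble) or a PEX7-knockdown (NSC-Pex7sh), with 2 libraries each. A first brain set (Ctrl1, wild type, and PLA1, PLAAT3-PEX11 overexpression) and a second one, the neuron set (Neuron-ctrl, wild type, and Neuron-PLA, the same overexpression) also had 2 libraries per group. Both sets carry the label brain, and the labels used here give no strain, no age of the animals outside the stages, no promoter and no cell sorting. Nothing says whether the replicates are separate animals or cultures, and p-values then reflect the spread among these libraries alone, which may be technical.

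Projection neurons of the cortex are born from radial glia in sequence, deep layers first and upper layers later, and upper-layer neurons send many of their axons to the other hemisphere. Cux1 and Cux2 are homeodomain factors of upper-layer neurons, with roles in their dendrites and synapses. Pou3f1, Pou3f2 and Pou3f3 (Oct6, Brn2 and Brn1) are POU-domain factors, of which Brn1 and Brn2 act in the production and migration of upper-layer neurons and are also made in progenitors. Rorb is an orphan nuclear receptor best known in layer 4, and Mef2c is a MADS-box factor of differentiating neurons that microglia and endothelial cells also make. In bulk RNA, fewer cells of a type and less RNA per cell cannot be told apart.

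Rorb and Mef2c, which both fell in PLA1, are shown with the sequence before their start for that reason. Their courses over the stages and in the neuron set are given separately. Rorb (ENSMUSG00000036192) lies on the minus strand of chromosome 19 from 18930605 to 19111196 of mm10, and Mef2c (ENSMUSG00000005583) on the plus strand of chromosome 13 from 83504034 to 83667080, both protein coding. The other 5 genes, also protein coding, lie on chromosome 5 (Cux1, 136248135 to 136567490, and Cux2, 121856366 to 122050102, both minus strand), chromosome 4 (Pou3f1, 124656807 to 124660655, plus strand, and Pou3f2, 22482780 to 22488366, minus strand) and chromosome 1 (Pou3f3, 42695768 to 42703176, plus strand). The lines give the 250 bases before a RefSeq start of each gene, 5′ to 3′ on the gene's strand (GRCm38.p6; Rorb chr19:19111197-19111446, Mef2c chr13:83503784-83504033), with matches to CCAAT or TATAAA on either strand in capitals.
Rorb: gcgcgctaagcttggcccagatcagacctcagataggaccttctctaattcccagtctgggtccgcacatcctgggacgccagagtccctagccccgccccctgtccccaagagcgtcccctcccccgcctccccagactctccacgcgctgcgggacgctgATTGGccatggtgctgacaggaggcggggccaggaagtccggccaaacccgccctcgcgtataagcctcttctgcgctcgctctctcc
Mef2c: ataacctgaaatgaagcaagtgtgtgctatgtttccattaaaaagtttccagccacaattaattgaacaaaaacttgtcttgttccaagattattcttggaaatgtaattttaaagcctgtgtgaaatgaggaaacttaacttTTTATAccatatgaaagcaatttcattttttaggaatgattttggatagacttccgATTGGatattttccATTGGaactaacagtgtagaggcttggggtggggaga
Rorb had 1 match to CCAAT, starting at base -88 from the start. Mef2c had matches to CCAAT at -51 and -37 and a match to TATAAA at -107. Neither of these windows held AGGTCA, a nuclear receptor half-site, or the octamer ATGCAAAT. Of 32851 RefSeq windows of this length, 33.8% held CCAAT, 12.4% TATAAA, 14% AGGTCA and 1.6% ATGCAAAT. The windows also differ in base composition, with 66.0% G and C for Rorb and 33.6% for Mef2c. RefSeq lists further starts for both genes. Of the other Mef2c windows, chr13:83523406-83523655 held CCAAT at -83, TATAAA at -22 and AGGTCA at -237, and chr13:83573357-83573606 held AGGTCA at -116 and -72. The other Rorb window, chr19:19001118-19001367, held none of the 4 motifs, and windows were found for 6 of the 7 genes.

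Through development the 7 genes did not move as a group: Mef2c, Cux2, Rorb and Pou3f1 rose, Cux1 and Pou3f3 fell, and Pou3f2 was not called. Values are RPKM (reads per kilobase of exon, scaled to the library's read total), and the test was the slope of log2(RPKM + 1) on embryonic day in limma, with genes called at a Benjamini-Hochberg adjusted p under 0.05 over all genes whose mean reached 1 RPKM. Of the 7 genes, 6 were called, 4 up and 2 down, where 45.1% of all 12921 genes tested were called, 19.6% rising and 25.5% falling. A slope from 6 single libraries describes a trend over the stages and has no replicate within a stage.

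**Figure D1:**
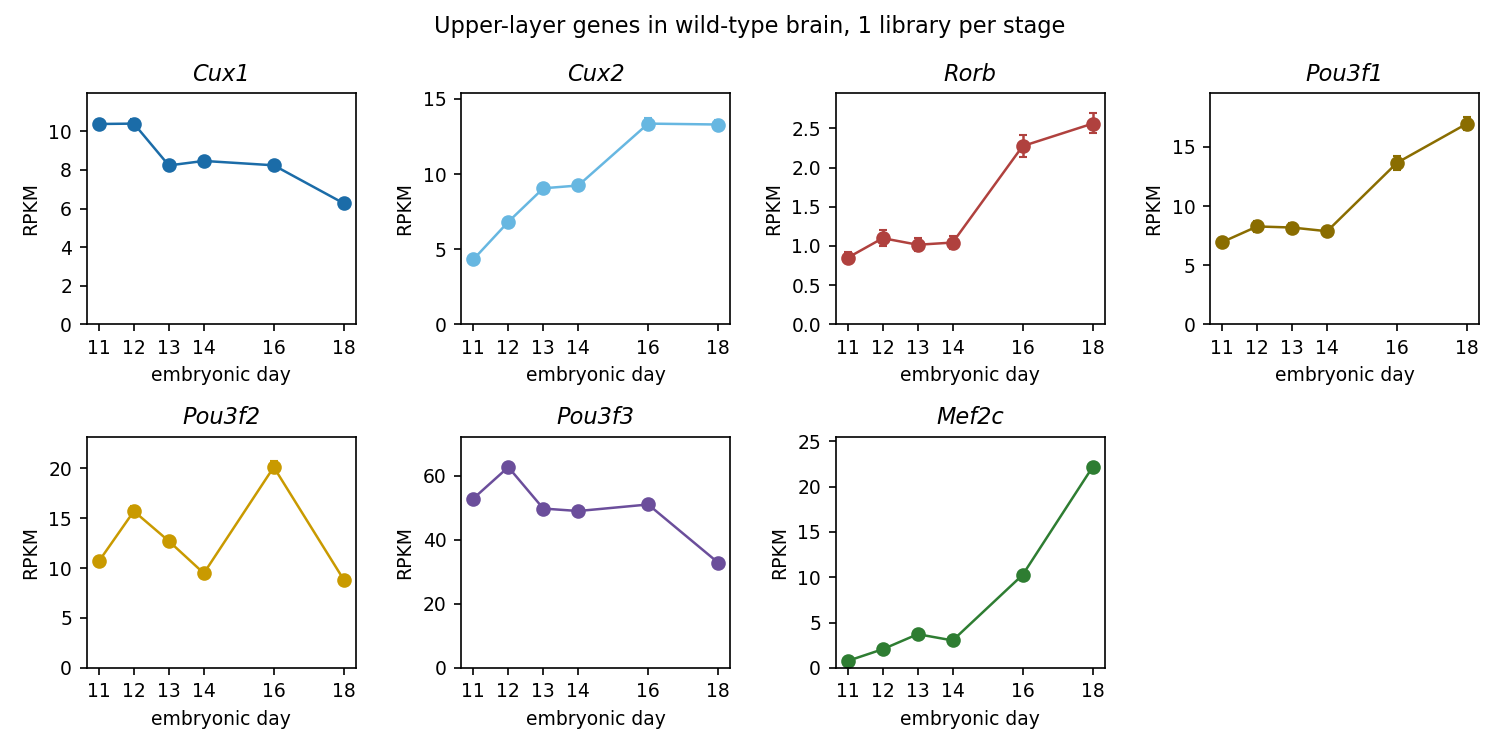
RPKM of each gene (vertical axes, each with its own range from 0) against embryonic day, 1 library per stage, with 95% Poisson intervals that cover counting error only. Mef2c, Rorb and Pou3f1 are highest at day 18 and Cux1 and Pou3f3 lowest, while Pou3f2 is highest at day 16.

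Mef2c had the steepest slope of the 7. Its levels were 0.767 RPKM at E11, 2.06 at E12, 3.71 at E13, 3.02 at E14, 10.3 at E16 and 22.2 at E18. The level at E18 was thus 28.9 times that at E11, and the slope was 0.51 log2 units per day (SE 0.041, limma adjusted p = 0.00065). In RPKM most of that rise came after E14, but as a ratio much came before. The ratio was 3.94 from E11 to E14, 3.39 from E14 to E16 and 2.16 from E16 to E18. The 95% Poisson interval at E11 ran from 0.708 to 0.829 RPKM, on 631 reads, and at E18 from 21.8 to 22.5 RPKM, on 18933 reads.

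Rorb and Pou3f1 shared a shape of little change up to E14 and a step to E16. Rorb stood at 0.8498, 1.10, 1.02, 1.04, 2.27 and 2.56 RPKM from E11 to E18, a low level throughout on 493 to 1542 reads. Its slope was 0.15 log2 units per day (SE 0.031, limma adjusted p = 0.0081), and its level rose 2.18-fold from E14 to E16 after a ratio of 1.23 between E11 and E14. Pou3f1 stood at 6.95, 8.28, 8.18, 7.87, 13.7 and 17.0 RPKM, with a slope of 0.17 (SE 0.028, limma adjusted p = 0.0032). Its ratio of E14 to E11 was 1.13 and of E16 to E14 was 1.74.

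Cux2 and its paralog Cux1 went opposite ways. Cux2 rose earlier than Rorb and Pou3f1, from 4.32 RPKM at E11 to 6.82, 9.05 and 9.24 at E12, E13 and E14, and then stood at 13.4 at E16 and 13.3 at E18 (slope 0.19, SE 0.036, limma adjusted p = 0.0049). Cux1 went from 10.4 RPKM at both E11 and E12 to 8.23, 8.47, 8.24 and finally 6.27 (slope -0.085, SE 0.023, limma adjusted p = 0.02). The ratio of Cux2 to Cux1 therefore passed from 0.416 at E11 and 0.656 at E12 to 1.10 at E13, 1.09 at E14, 1.62 at E16 and 2.12 at E18. Without the E18 library the call for Cux1 was lost (adjusted p = 0.192), and also without E12 (0.055).

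Summed, the POU genes made up 81.2% of the RPKM of the 7 at E11 and 57.0% at E18. Pou3f3 was the highest of the 7 at every stage, at 52.9, 62.7, 49.8, 49.0, 51.0 and 32.9 RPKM. Its slope of -0.094 (SE 0.031, limma adjusted p = 0.043) rested on the last stage, and without E18 it was -0.034 (adjusted p = 0.542). The call was also lost without E12, E13 or E14 (adjusted p = 0.101, 0.066 and 0.067), without the filter on low values (0.070) and under median-ratio (0.072) or upper-quartile scaling (0.061). Pou3f2 had levels of 10.7, 15.7, 12.7, 9.48, 20.1 and 8.85 RPKM. It peaked at E16, 2.12 times its level at E14, and its slope of -0.016 (SE 0.062, limma adjusted p = 0.851) was not called.

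The E18 library carried several of these calls. Without it 2 of the 7 genes, Mef2c and Cux2, stayed called, where 2537 of all 12779 genes tested were called. Rorb then had an adjusted p of 0.076 and Pou3f1 of 0.053, with slopes of 0.15 for each, close to those with E18.

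Other genes of upper-layer and callosal neurons mostly rose with the stages. Of 16 tested from a list of 18, 10 rose and 3 fell (median slope 0.20, against -0.019 for all genes). Of all genes tested 19.6% rose and 25.5% fell. Cacna1e, a calcium channel subunit, rose by 0.29 log2 units per day (SE 0.040, limma adjusted p = 0.0016) and Lpl, lipoprotein lipase, by 0.19. Of 16 deep-layer genes 5 rose and 1 fell (median 0.062), the risers including Ldb2 (0.38), Crym (0.59) and Foxp1 (0.15). Whether the lists differ was not tested. Among paralogs and partners, 1 of 11 rose, Mef2d (0.12), and 1 fell, Pou3f4 (-0.27), the fourth class III POU gene.

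Markers of the cells in the tissue also shifted over the stages, where 19.6% of all genes tested rose and 25.5% fell. Pan-neuronal markers rose in 9 of 15 with none falling, and their summed level went from 1157 RPKM at E11 to 3964 at E18. Radial glia markers fell in 9 of 12, with 1 rising, from a sum of 1098 to 668. Microglia markers rose in 7 of 8 and their sum went from 18.8 to 44.4, and endothelial markers rose in 2 of 5 (sum 23.1 to 47.3). Intermediate progenitor markers fell in 4 of 8, with a sum of 317 at E11, 464 at E14 and 59.2 at E18. Interneuron and ventral forebrain markers fell in 5 of 9 and rose in 1, with sums of 243 to 366 RPKM over the stages. The same sum was 17.1 to 39.0 in the first brain set and 68.0 to 131 in the neuron set. Astrocyte markers rose in 3 of 4 and fell in 1 (sum 26.1 to 152), and erythroid markers fell in 2 of 4 (sum 1955 to 253). Their part in the slopes of the 7 genes was not tested.

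Each gene had close companions in shape over the 6 stages among 7781 genes whose mean reached 5 RPKM. Likeness was the root mean square difference of centred log2(RPKM + 1) values, a description over 6 libraries that all points share. The nearest to Mef2c were Adcy1 (0.097), an adenylyl cyclase that went from 0.474 to 20.1 RPKM, then Dlk2 (0.11) and Sprn (0.13). Nearest to Cux2 were Tubb2b (0.045), a beta-tubulin, then Tmem150b (0.056) and Ldhd (0.076). Rorb was nearest to Tmem74b (0.060), Hexa (0.10) and Pacs1 (0.11), and Pou3f1 to Armc6 (0.065), the same Tmem74b (0.078) and Dnase2a (0.079). Cux1 was followed most closely by Mtmr14 (0.033), Vps26a (0.034) and Utp18 (0.038), and Pou3f3 by Masp2 (0.037), Rsbn1 (0.046) and Cdh2 (0.050), the neural cadherin. No gene came so close to the uneven course of Pou3f2, where the nearest was Tuba1c (0.15), an alpha-tubulin, then Arrdc3 (0.18).

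In neural stem cells all 7 genes were present, and none was called after the knockdown of Pex7, which encodes the receptor that carries proteins with a type 2 signal into peroxisomes. Pex7 itself had 1.19 and 1.22 RPKM with the scrambled hairpin, against 0.5004 and 0.669 RPKM with the Pex7 hairpin. Its mean was under the filter of 1 RPKM, so Pex7 was not among the genes tested. Of the 7 genes 0 were called by limma, with 0 at an unadjusted p under 0.05, and over all genes it called 0 of 12482 (0%), with 184 at an unadjusted p under 0.05. Limma-voom on recovered reads also called 0. The log2 changes of the 7 lay between -0.042 and 0.13 (limma adjusted p = 0.9998 for each), with SEs from 0.079 to 0.16. Across the genes tested, the SD of the log2 difference within a pair was 0.303 for scramble and 0.183 for Pex7sh. Small changes could not be resolved.

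Pou3f3 was at 58.7 and 48.8 RPKM with the scrambled hairpin and 51.3 and 54.5 with the Pex7 hairpin. Pou3f2 was at 15.6 and 13.7 against 14.1 and 16.1, and Pou3f1 at 12.0 and 14.7 against 14.3 and 15.0. In all 3 POU genes the groups overlapped. Cux1 stood at 9.24 and 8.59 RPKM against 8.46 and 8.80, Cux2 at 9.64 and 10.3 against 9.51 and 9.83, and Rorb at 3.84 and 3.21 against 3.34 and 3.92. Mef2c had 10.9 and 15.2 RPKM against 13.6 and 13.98, so that the scramble libraries lay farther apart than the groups. No gene of the 7 had groups that did not overlap, as 22.5% of all genes did.

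These cultures also held neuronal RNA. Sox2, a transcription factor of neural progenitors, stood at 71.5 to 103 RPKM, while the 15 pan-neuronal markers summed to 1267 and 1707 RPKM in the scramble libraries and 1488 and 1523 in the Pex7sh libraries. The 9 microglia markers summed to 2.14 to 5.45 RPKM and the 7 endothelial markers to 0.794 to 1.21. C1qa was at 0 in NSC-Scramble library 2, and Cldn5 in both scramble libraries and NSC-Pex7sh library 2. Oligodendrocyte lineage markers summed to 430 and 218 RPKM in the scramble libraries and 323 and 324 in the Pex7sh libraries. Interneuron and ventral forebrain markers summed to 261 and 410 RPKM with scramble and 354 and 291 with Pex7sh. In both lists the scramble libraries lay farther apart than the Pex7sh libraries. Mef2c stood at 10.9 to 15.2 RPKM, and the part of any cell type in its level was not tested. None of the other lists had a called gene, the 18 other upper-layer genes (median 0.033) and 15 deep-layer genes (median 0.0040) among them.

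**Figure D2:**
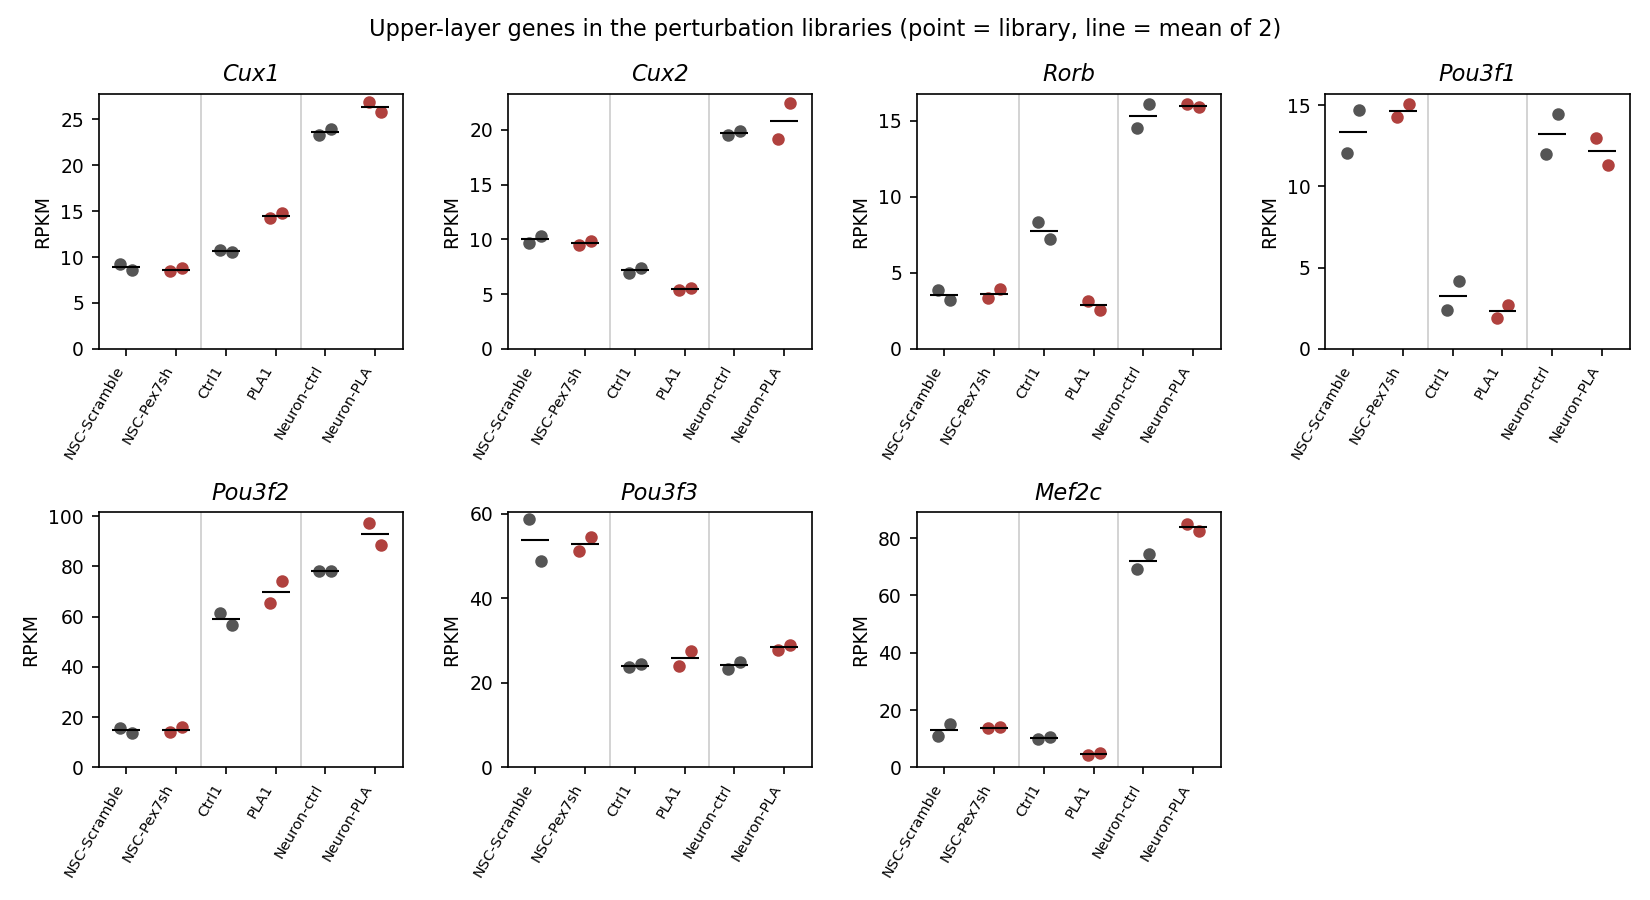
RPKM of the 7 genes in the 12 perturbation libraries, with a point per library and a line at the mean of each pair. Rorb reaches at most 3.16 RPKM in PLA1 and at least 7.20 in Ctrl1, and Mef2c at most 4.99 and at least 9.83, while in the neuron set Rorb overlaps between groups and Mef2c lies higher in Neuron-PLA.

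In the first brain set, PLAAT3-PEX11 overexpression went with lower Rorb and Mef2c and higher Cux1, and the other 4 genes were not called. PLAAT3 is a phospholipase of the PLAAT family and PEX11 proteins act in peroxisome division. Plaat3 went from 0.413 and 0.431 RPKM in Ctrl1 to 31.4 and 29.1 in PLA1. Of the 7 genes 3 were called, 1 up and 2 down, where 29.6% of 11623 genes were called, 16.3% up and 13.2% down (median of all genes 0.057).

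Rorb had 8.36 and 7.20 RPKM in Ctrl1 and 3.16 and 2.56 in PLA1. The groups did not overlap, and the mean fell from 7.78 ± 0.821 to 2.86 ± 0.426 (SD, n = 2), a ratio of 0.368. The log2 change was -1.19 (SE 0.15, limma adjusted p = 0.002) on 508 to 1893 reads per library. Mef2c had 9.83 and 10.6 RPKM in Ctrl1 and 4.46 and 4.99 in PLA1, also without overlap. Its mean went from 10.2 ± 0.511 to 4.73 ± 0.373 (SD, n = 2), a ratio of 0.464, with a log2 change of -0.97 (SE 0.12, limma adjusted p = 0.002). Under every alternative run in this comparison both genes stayed called, with changes from -1.45 to -1.07 for Rorb and -1.11 to -0.90 for Mef2c.

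Cux1 rose, and Cux2 lay lower in PLA1 without passing the test. Cux1 had 10.7 and 10.6 RPKM in Ctrl1 and 14.2 and 14.7 in PLA1, a ratio of 1.36 (log2 change 0.41, SE 0.10, limma adjusted p = 0.022). This call was lost without Ctrl1 library 1 (adjusted p = 0.122) or 2 (0.11) or PLA1 library 2 (0.070), without the filter on low values (0.054), and after a trend with exon length and GC content was removed (change 0.16, adjusted p = 0.289). Cux2 stood at 6.95 and 7.42 RPKM against 5.39 and 5.53, with no overlap (log2 change -0.34, limma adjusted p = 0.073). It was not called here, but passed with median-ratio scaling (adjusted p = 0.046), with limma-voom on recovered reads (0.026) and with that trend removed (0.023). The ratio of Cux2 to Cux1 was 0.648 and 0.70 in Ctrl1 and 0.379 and 0.375 in PLA1.

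None of the POU genes was called. Pou3f2 had 61.4 and 56.7 RPKM in Ctrl1 and 65.6 and 74.0 in PLA1 (log2 change 0.24, limma adjusted p = 0.086), and passed only without PLA1 library 1 (0.0498). Pou3f3 had 23.6 and 24.6 against 24.0 and 27.6 (0.091, adjusted p = 0.517). Pou3f1 was low and uneven, at 2.36 and 4.19 RPKM against 1.90 and 2.71 (-0.35, adjusted p = 0.303), with its Ctrl1 libraries farther apart than the group means. In 5 of the 7 genes the groups did not overlap, where 69.3% of all genes tested had no overlap (39.6% higher and 29.7% lower in PLA1).

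**Figure D3:**
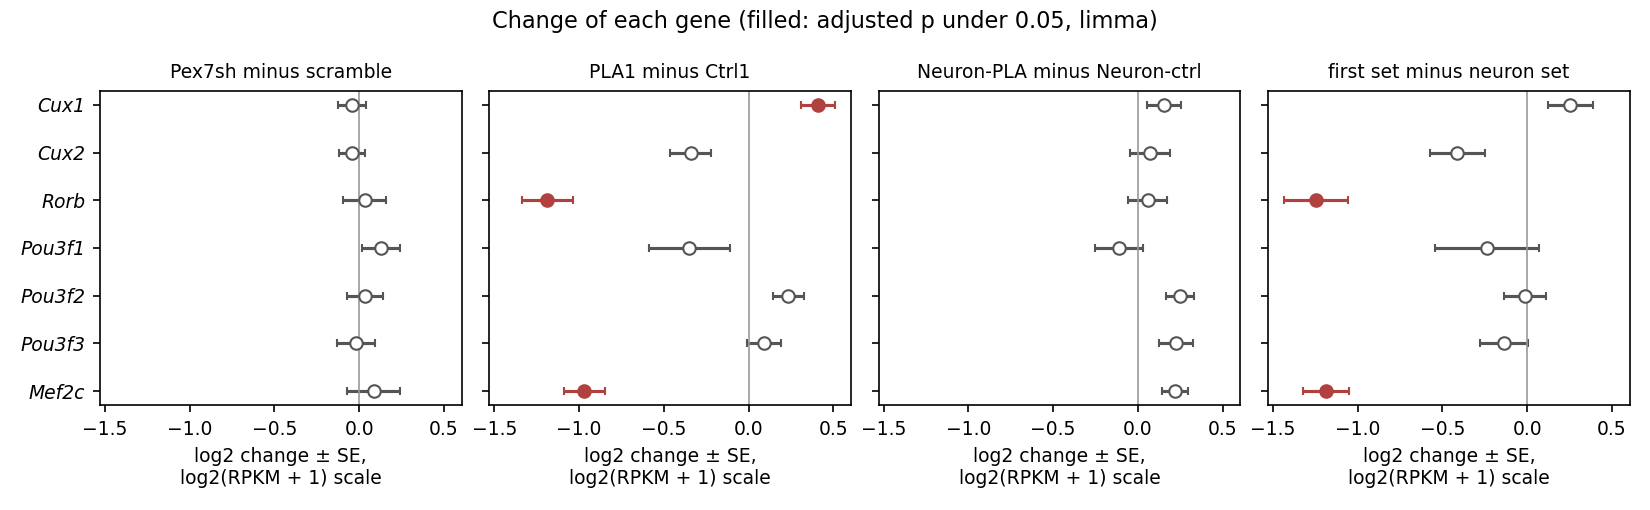
Log2 change ± SE of each gene in the 3 comparisons, and in the last panel the change in the first set minus that in the neuron set, all on the log2(RPKM + 1) scale. Filled points passed an adjusted p under 0.05 in limma: Rorb, Mef2c and Cux1 in PLA1, and Rorb and Mef2c in the difference between sets.

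Of 16 tested other upper-layer genes 3 fell in PLA1 and 1 rose (median -0.23), where 13.2% of all genes fell and 16.3% rose, so their count is near the background. The genes that fell were Cdh13, a cadherin, at -1.13 (SE 0.10, limma adjusted p = 0.00056), Lpl at -0.85 and Kitl, the ligand of Kit, at -0.81, while Nectin3 rose by 0.59. Deep-layer genes fell in 8 of 14 and rose in 1 (median -0.54), among them Ldb2 (-1.20), Fezf2 (-0.90), a factor that specifies subcerebral neurons, and Sox5 (-0.77). Pan-neuronal markers fell in 9 of 15 with none rising (median -0.50), such as Mapt (-1.53), Tubb3 (-1.27) and Gap43 (-1.03). Their summed level was 2382 and 2355 RPKM in Ctrl1 and 1379 and 1306 in PLA1.

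Of the paralogs and partners, Pou2f1 (1.07) and Mef2b (1.25) rose and 3 of 12 fell, including the class IIa histone deacetylase gene Hdac5 (-0.74), whose product binds and represses MEF2 factors. Of all genes tested 16.3% rose and 13.2% fell. Radial glia markers rose in 8 of 12 with 1 falling (median 0.43), among them Slc1a3 (1.08), Hes1 (1.04) and Notch1 (0.96). Sox2, however, stood at only 1.13 to 2.20 RPKM in this set. Microglia markers fell in 7 of 8 tested (median -1.11), with Csf1r at -1.52, and the sum of the 9 was 443 and 407 RPKM in Ctrl1 and 181 and 190 in PLA1, with Trem2 at 0 in 1 PLA1 library. Of 3 astrocyte markers Apoe fell (-1.46) and Gja1 rose (0.58), and of 8 intermediate progenitor markers 2 rose and 1 fell. Interneuron markers fell in 3 of 5 and Cajal-Retzius markers in 2 of 5, and the 7 endothelial markers summed to 0.849 to 1.10 RPKM. The part of these cell types in the changes of Mef2c and Rorb was not tested.

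In the neuron set, under the same overexpression label, none of the 7 genes was called. Plaat3 stood at 0.070 and 0.230 RPKM in Neuron-ctrl and at 19.0 and 20.8 in Neuron-PLA. Only 98 of 11179 genes were called in this comparison, or 0.877% (0.376% up and 0.501% down), and between 7 and 163 with 1 library left out. The 7 changes ran from -0.11 to 0.25 on the log2 scale (median 0.15, against 0.0024 for all genes).

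Mef2c had 69.2 and 74.5 RPKM in Neuron-ctrl and 85.0 and 82.5 in Neuron-PLA, a ratio of 1.17 with no overlap (log2 change 0.22, SE 0.079, limma adjusted p = 0.221). With limma-voom on recovered reads it was called (adjusted p = 0.027), the 1 of the 7 genes that was. Pou3f2 had 78.0 and 78.1 RPKM against 97.5 and 88.6 (0.25, adjusted p = 0.18), Pou3f3 23.3 and 25.02 against 27.8 and 29.1 (0.23, adjusted p = 0.294), and Cux1 23.3 and 23.9 against 26.9 and 25.8 (0.15, adjusted p = 0.468). These 4 genes lay above the controls in both libraries, where 24.7% of all genes did, 25.3% lay below and 50% in either direction. Cux2 at 19.5 and 19.9 against 19.2 and 22.5, Rorb at 14.5 and 16.1 against 16.1 and 15.9, and Pou3f1 at 12.0 and 14.5 against 13.0 and 11.3 RPKM overlapped between groups.

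Of 17 other upper-layer genes tested in the neuron set 2 rose and 1 fell (median 0.26), where 0.376% of all genes rose and 0.501% fell. Epha3 (0.55, SE 0.091, limma adjusted p = 0.046), an ephrin receptor, was among those that rose, and Lmo4 (-0.56), a LIM-only factor, fell. No deep-layer gene of 14 (median -0.15) and no pan-neuronal marker of 15 (median 0.064) was called, and the pan-neuronal sum was 4463 and 4552 against 4432 and 4533 RPKM. Interneuron markers fell in 6 of 8, with Dlx1 at -0.94, Dlx5 at -1.002 and Sst at -0.94. The endothelial gene Cldn5 fell by 2.94, and the 7 endothelial markers summed to 21.4 and 20.9 RPKM in Neuron-ctrl and 1.95 and 2.05 in Neuron-PLA, with Cdh5 and Tek at 0 in both Neuron-PLA libraries. Microglia markers summed to 123 and 128 against 81.3 and 71.5 RPKM (1 of 8 fell, C1qb at -0.88), and 2 of 9 radial glia markers fell. Astrocyte markers summed to 206 and 219 against 111 and 136 RPKM (1 of 4 fell, Apoe at -0.80), and erythroid markers to 82.3 and 89.0 against 30.8 and 40.5 (1 of 3 fell, Hba-a1 at -1.32). Mef2c thus stood at 85.0 and 82.5 RPKM in the libraries where these sums were lower. The part of such cells in its level was not tested.

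**Figure D4:**
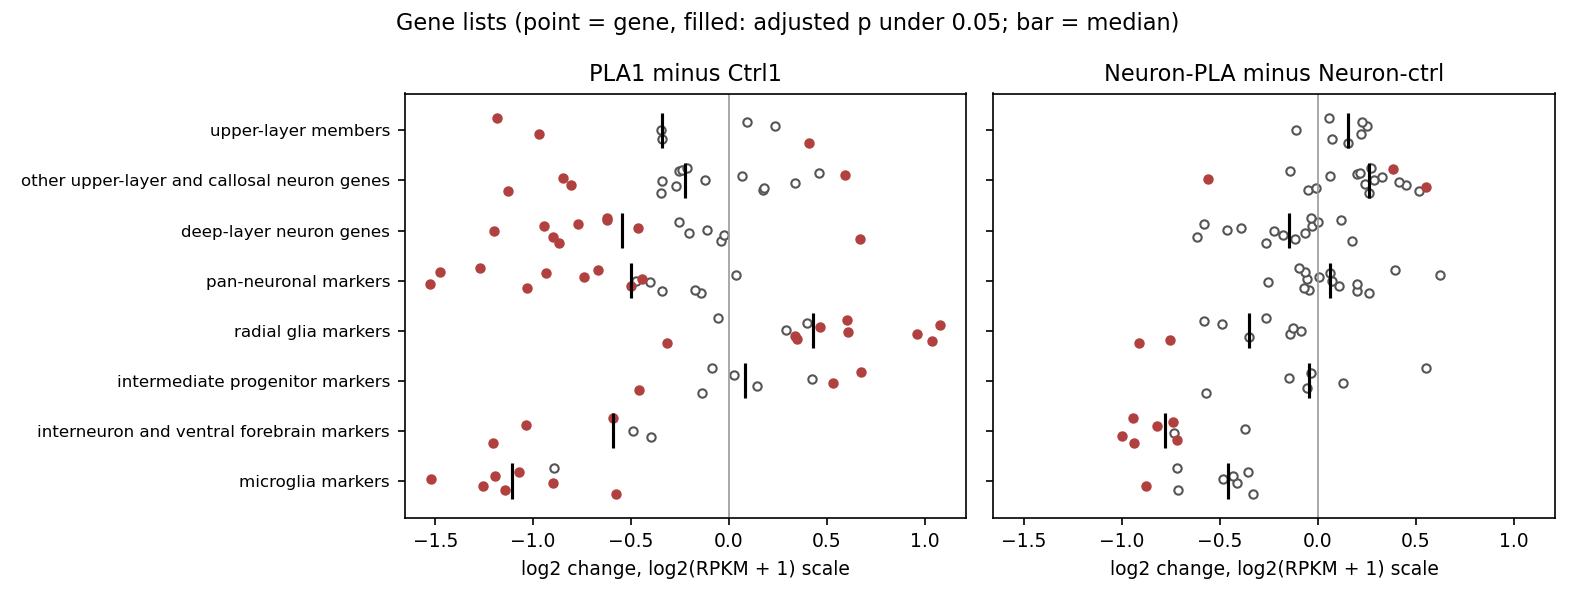
Log2 change of every tested gene of 8 lists in the first brain set (left) and the neuron set (right), on the log2(RPKM + 1) scale, filled where the adjusted p was under 0.05 and with a bar at the median. The 7 genes spread from -1.19 to 0.41 in PLA1 and from -0.11 to 0.25 in Neuron-PLA.

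The difference between the overexpression sets was tested itself, as the interaction of set and treatment. Mef2c differed by -1.19 (first set minus neuron set, SE 0.13, limma adjusted p = 0.00081) and Rorb by -1.25 (SE 0.19, adjusted p = 0.0032). These 2 of the 7 were called, both down, where 11.7% of 11705 genes were called, 6.19% upward and 5.48% downward. Cux2 (-0.41, adjusted p = 0.136), Cux1 (0.26, adjusted p = 0.243), Pou3f1 (-0.24), Pou3f3 (-0.14) and Pou3f2 (-0.013) did not pass. Of 17 other upper-layer genes 6 were called, all down, with Cdh13 (-1.08), Kitl (-1.05) and Lpl (-1.17) of smallest adjusted p, against 2 down and 1 up of 15 deep-layer genes and 8 down of 15 pan-neuronal markers. Each difference was taken within its own table. The sets share the overexpression label, but their control levels differed. Mef2c stood at 9.83 and 10.55 RPKM in Ctrl1 and at 69.2 and 74.5 in Neuron-ctrl.

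The order of the 7 genes by RPKM differed between the kinds of sample. These levels come from separate tables and are described, with no test. Pou3f3 was the highest in all stages and stem cell libraries, with a ratio of Pou3f2 to Pou3f3 of 0.194 to 0.394. In both overexpression sets Pou3f2 was the highest, with a ratio of 2.31 to 2.73 in the first set and 3.05 to 3.5 in the neuron set. Mef2c was second in all 4 libraries of the neuron set, at 69.2 to 85.0 RPKM, about the same as Pou3f2 in Neuron-ctrl (78.0 and 78.1). In the stem cells Pou3f1, Pou3f2 and Mef2c changed places between libraries and did not differ beyond their spread. In Ctrl1 neither did Cux2 and Rorb, which also changed places, and at E13 and E14 Cux1 (8.23 and 8.47 RPKM) lay just below Cux2 (9.05 and 9.24).

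**Figure D5:**
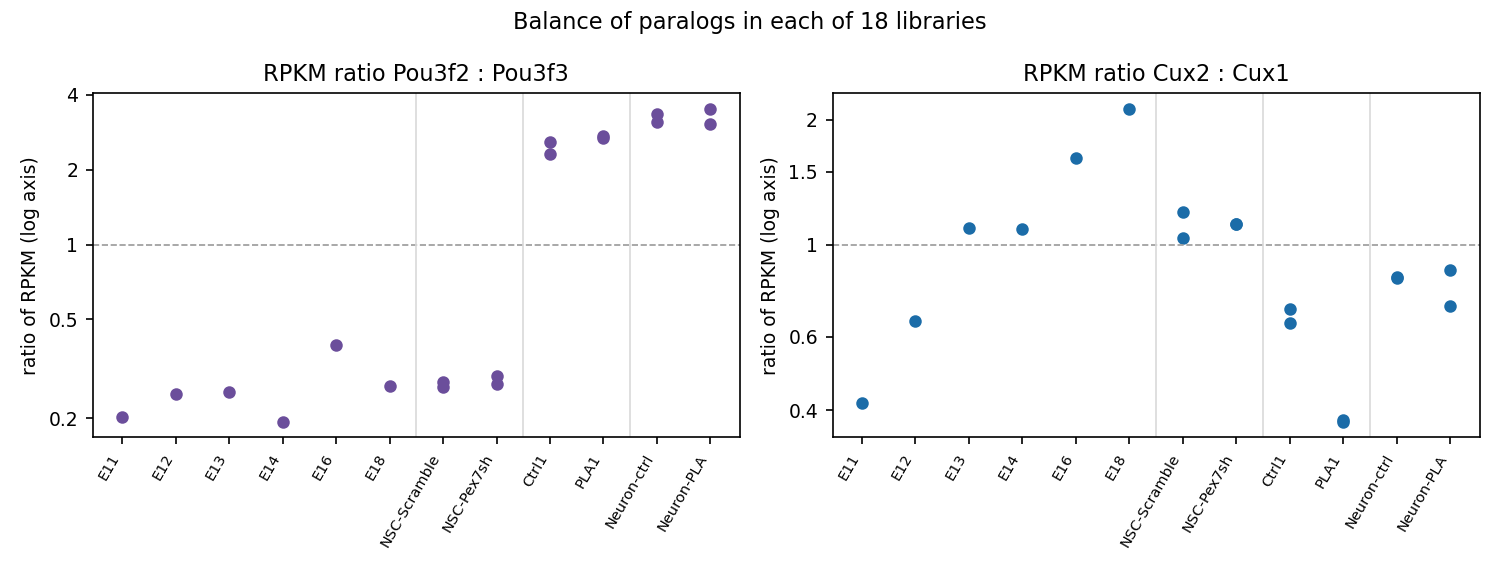
Ratio of RPKM of Pou3f2 to Pou3f3 (left) and of Cux2 to Cux1 (right) in each of the 18 libraries, on log axes, with a dashed line at equal levels. The first ratio is at most 0.394 in stages and stem cells and at least 2.31 in both overexpression sets, and the second goes from 0.656 at E12 to 1.10 at E13.

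The sum of the 7 genes was 239.8 to 286 RPKM in the neuron set, against 86.9 to 132 in all other libraries. Tables also differed by base composition. Across 5504 genes the log2 ratio of Neuron-ctrl to E18 had a Spearman correlation of -0.389 with transcript GC content, and across 5660 genes that of Ctrl1 to E14 had -0.338. For NSC-Scramble to E14 the correlation was -0.223, across 6731 genes. Genes are not independent replicates, and no p is given. Pou3f2 (44.4% GC) is lower in GC than Pou3f3 (51.1%), and Mef2c (40.8%) and Rorb (41.6%) are the lowest of the 7, while Pou3f1 is at 63.9%. The part of base composition in levels across tables was not tested. Sox2 at 0.417 to 2.20 RPKM in both overexpression sets, against 25.4 to 139 in the stages, is another gene that stands apart there. Its GC content is 50.5%, near that of Pou3f3.

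The long noncoding RNA genes Pantr1 and Pantr2 lie within 5 kb of Pou3f3 on the other strand. Pantr2 fell over the stages (-0.26 per day, SE 0.042, limma adjusted p = 0.0029) but rose in PLA1, from 14.5 and 13.8 to 24.1 and 30.5 RPKM (log2 change 0.89, SE 0.12, limma adjusted p = 0.0028), while Pou3f3 did not pass there. Pantr1 stood at 43.9 to 45.8 RPKM in all libraries of the first set. Next to Cux2, Pheta1 fell in PLA1 by 0.32 (adjusted p = 0.028), and next to Cux1, Sh2b2 rose over the stages by 0.11 per day (adjusted p = 0.024), against the direction of Cux1. Whether the counting used strand is not given in the sources used here, so reads of overlapping antisense genes cannot be told apart, and Gm15637, antisense to Cux2, was listed at no more than 0.699 RPKM.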

How the data were processed

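Values were deposited by the authors as 4 tables of RPKM, a unit read from the values, since no header names it. The submitters' processing notes name STAR 2.7.9a, HTSeq 0.6.0 and the mm10 build. RNA was extracted with Trizol, per the labels' protocols. RPKM times exon length (GENCODE M21) and a read total gave whole reads, within 0.01, for 97.5% to 97.8% of nonzero values, and totals of 41501880 to 54373317 reads in the stages and 16147911 to 28104927 in the other libraries. For Pou3f3 a length of 7733 bases, not the 7409 of M21, gave whole reads. The 7 genes had 118 to 36431 reads per library, and intervals cover counting error only.

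Tests used limma 3.58.1 in R 4.3.3, trend included, two-sided, for genes whose mean reached 1 RPKM, on the log2(RPKM + 1) scale, which understates changes of low genes, with Benjamini-Hochberg adjusted p under 0.05. Pairs were compared within their table, stages by a slope on embryonic day, and the overexpression sets by an interaction. Scripts were tested on simulated data. Alternatives were a pseudocount of 0.1, no filter, 2 scalings, limma-voom on recovered reads, a replicate block, each library left out and, added after seeing the data, removal of an exon length and GC trend. Named genes were the 7, up to 3 genes of smallest adjusted p from each list with a called gene, and the 3 nearest in stage profile. A few others were named after their values were seen (Nectin3, Sox2, genes at 0, and neighbours of the 7). The members and lists were chosen with earlier results of these data known. Some genes that this rule would name are not reported here.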

Additional observations from a re-analysis of the deposited data

Results flagged for a closer look

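For Mef2c and Rorb the change under PLAAT3-PEX11 overexpression differed between the sets. The change of Mef2c in the first brain set minus that in the neuron set was -1.19 on the log2(RPKM + 1) scale (SE 0.13, limma adjusted p = 0.00081), and that of Rorb was -1.25 (SE 0.19, limma adjusted p = 0.0032). Mef2c was lower in PLA1 than in Ctrl1 in 2 of 2 libraries, as were 29.7% of all genes tested. It was higher in Neuron-PLA than in Neuron-ctrl in 2 of 2, as were 24.7% of all genes tested. That rise of Mef2c in the neuron set was not called (log2 change 0.22, limma adjusted p = 0.221). Rorb was lower in 2 of 2 PLA1 libraries and overlapped in the neuron set. Over the 15 alternatives run for this test the difference lay between -1.33 and -1.12 for Mef2c (adjusted p from 2.4e-05 to 0.0099) and between -1.51 and -1.13 for Rorb (from 0.00018 to 0.022), and both were called in each. The part of cell makeup in this difference was not tested.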

How the results depend on the processing

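With 1 library per stage or 2 per group, and a lone library assumed to vary like the other groups where 1 was left out, small changes could not be resolved. Same-numbered libraries deviated together little or not at all (r = 0.010 in stem cells, 0.099 in the first set and 0.047 in the neuron set), so the numbers were not taken to pair them. With the replicate block 1 gene was called after the Pex7 knockdown and 54 in the neuron set, and no call among the 7 genes changed. Of all genes, 1177 were called in the first set, 0 in the neuron set (98 with the filter) and 761 in the interaction without the filter on low values. In the neuron set limma-voom called 339 genes and 1 of the 7, and removal of the exon length and GC trend left 55. Leaving out a library gave 2537 to 5485 called genes for the stages (2 to 6 of the 7), 0 to 0 for the knockdown, 1575 to 3294 for the first set (2 to 4 of the 7), 7 to 163 for the neuron set and 636 to 1218 for the interaction (2 of the 7). Without Ctrl1 library 1 the first set had 1575 called genes and without PLA1 library 2 it had 2048, against 3438. The neuron set had 7 without Neuron-ctrl library 1, 11 without its library 2, 9 without Neuron-PLA library 1 and 163 without its library 2. The interaction had 636 without Ctrl1 library 1, 744 without its library 2, 890 without Neuron-ctrl library 2 and 848 without PLA1 library 2, against 1367. The lowest count for the stages came without E18.

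Reversals of sign concerned genes not called. Pou3f2 over the stages was at 0.0019 with median-ratio scaling and 0.011 with the trend removed, and ran from -0.072 to 0.11 with a stage left out. With the trend removed Pou3f3 was at -0.058 in the first set, and Cux1 at -0.018, Cux2 at -0.033 and Rorb at -0.064 in the neuron set. With a library left out, changes after the knockdown ran from -0.089 to 0.0052 for Cux1, -0.087 to 0.0037 for Cux2, -0.069 to 0.14 for Rorb, -0.0044 to 0.26 for Pou3f1, -0.056 to 0.12 for Pou3f2, -0.15 to 0.11 for Pou3f3 and -0.13 to 0.31 for Mef2c. In the first set Pou3f3 ran from -0.0060 to 0.19. In the neuron set Cux2 ran from -0.038 to 0.18, Rorb from -0.011 to 0.13 and Pou3f1 from -0.24 to 0.014. In the interaction Pou3f1 ran from -0.55 to 0.075 and Pou3f2 from -0.099 to 0.073. The cause was not tested.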
